A study of Rattus norvegicus with 4 samples.

Results

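The genes of the Wnt pathway examined here are the Wnt ligands, their Frizzled receptors and co-receptors, the secreted inhibitors of the Sfrp and Dkk families, and the genes that act below the receptors or feed back on them. They were chosen by symbol and not by any measured value, though with earlier results of these data known. The naming rule covered 57 genes of the RefSeq gene table, and 52 of them had a named probe on the arrays, out of 16562 genes with one. Tcf7, Wif1, Wnt2, Wnt3a and Znrf3 had no matched probe and were not analysed here.

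The samples were rat oligodendrocyte precursor cells (OPCs), the cells that mature into the myelin-forming oligodendrocytes of the brain. They were prepared from the pooled cerebral cortices of Sprague-Dawley rats at postnatal day 2 and kept for 3 days in PDGF and bFGF, 2 growth factors that maintain proliferation. At the switch to differentiating medium with the thyroid hormone T3, they were transfected with SMARTpool siRNA to rat GPR17 at 50 nM (siGPR17) or, as controls, with non-targeting RNA (siNEG), and they were lysed 48 h later, at day in differentiation 2. GPR17 is a G protein-coupled receptor that OPCs carry for a limited time on their way to maturity. Each condition had 2 samples that the design calls independent, each on 1 one-color Agilent array, and since the cortices were pooled, p-values measure the spread between these samples and not between animals.

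Wnt proteins are secreted, lipid-modified ligands that bind a Frizzled receptor together with Lrp5 or Lrp6. In the canonical branch, binding stops the complex of Axin and Apc from marking beta-catenin for degradation, and beta-catenin then enters the nucleus and activates genes together with Tcf and Lef factors. Some of the activated genes, such as Axin2, Nkd1 and Apcdd1, restrain the pathway again. In the oligodendrocyte lineage, canonical Wnt signaling is known as a regulator of the timing of differentiation, and Tcf7l2 and Apc are among its best known components there.

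The sequence that ties the nuclear step to the DNA is the short core bound by Tcf and Lef factors. The letters CTTTGAT and CTTTGAA were searched on both strands in the 250 bases before each RefSeq start (build GRCr8). Of the 52 genes, 37 matched the promoter table used. At least one of both motifs was present in 5 of these 37, or 13.5%, namely Axin2, Dkk1, Dkkl1, Nkd1 and Wnt8a, against 7.58% of all 33469 windows. CTTTGAT alone occurred in 3.15% of all windows and in Axin2, Dkkl1 and Nkd1, and CTTTGAA in 4.68% and in Axin2, Dkk1 and Wnt8a. A match describes the letters in the window and does not show binding.

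The windows of 4 genes are printed 5′ to 3′ on the strand of the gene, with the motifs in capitals. Axin2 (chr10:94398535-94398784, plus strand) and Nkd1 (chr19:34722847-34723096, minus strand) are shown as feedback genes with a motif. Wnt4 (chr5:154797200-154797449, plus strand) and Fzd4 (chr1:152692257-152692506, plus strand), which held neither motif, are shown as the ligand and the receptor with the lowest p, a choice made after their values were seen.
Axin2: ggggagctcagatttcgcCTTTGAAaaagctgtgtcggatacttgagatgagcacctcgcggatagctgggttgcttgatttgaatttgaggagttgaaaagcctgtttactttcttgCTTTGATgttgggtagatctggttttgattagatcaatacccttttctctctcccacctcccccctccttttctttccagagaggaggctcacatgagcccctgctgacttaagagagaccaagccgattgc
Nkd1: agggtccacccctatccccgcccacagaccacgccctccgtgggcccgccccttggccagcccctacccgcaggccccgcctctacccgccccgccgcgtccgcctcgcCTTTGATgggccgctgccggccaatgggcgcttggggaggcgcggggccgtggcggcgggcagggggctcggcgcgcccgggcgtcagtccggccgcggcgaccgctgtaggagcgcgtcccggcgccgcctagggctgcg
Wnt4: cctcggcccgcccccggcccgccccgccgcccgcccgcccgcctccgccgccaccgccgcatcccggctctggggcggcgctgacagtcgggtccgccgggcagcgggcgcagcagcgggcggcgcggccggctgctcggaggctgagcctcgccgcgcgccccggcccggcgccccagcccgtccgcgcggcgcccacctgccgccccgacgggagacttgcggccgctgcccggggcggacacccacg
Fzd4: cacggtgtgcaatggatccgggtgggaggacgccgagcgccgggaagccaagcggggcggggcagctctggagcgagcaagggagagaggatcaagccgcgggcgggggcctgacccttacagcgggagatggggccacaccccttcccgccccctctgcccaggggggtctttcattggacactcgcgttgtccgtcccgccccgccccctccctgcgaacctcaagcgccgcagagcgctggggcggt
In Axin2 the CTTTGAT began 132 bases and the CTTTGAA 232 bases before the start, and in Nkd1 the CTTTGAT began 141 bases before it. All 3 matches lay on the strand shown.

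The silencing itself was seen first. Gpr17 gave normalized signals of 1107 and 1113 in siNEG and of 652 and 639 in siGPR17 OPCs, where the normalized signal is the probe's intensity scaled to the 75th percentile of its array. Both siGPR17 arrays lay below both siNEG arrays, in the direction of the labels. The log2 fold change, always siGPR17 minus siNEG, was -0.78 (SE 0.085, n = 2 per group), and limma gave an adjusted p of 0.209 (Benjamini-Hochberg over 28016 tested probes). Of the stage markers, Mbp, a structural protein of myelin, had a log2 fold change of 0.32 (SE 0.115, unadjusted p = 0.047 from limma), and Cspg4, the NG2 proteoglycan of precursors, one of -0.48 (SE 0.096, unadjusted p = 0.007 from limma). The other oligodendrocyte markers lay on both sides of 0. Cldn11 was at 0.22, Mag at 0.20, Bcas1 at 0.090 and Enpp6 at 0.089, while Mog was at -0.67 (SE 0.124, unadjusted p = 0.005 from limma), Cnp at -0.24, Mobp at -0.23 and Myrf at -0.20. The array measures a whole culture, so fewer cells of a type and less RNA per cell cannot be told apart.

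All 4 arrays were on 1 slide and scanned together. Between 26997 and 28244 probes per array were well above background, no probe was saturated, and the 75th percentile lay between 565 and 624 intensity units. Both siNEG arrays were in one column of the slide and both siGPR17 arrays in another, so slide column and treatment cannot be told apart. Between replicate arrays, the log2 values of the tested probes differed with a SD of 0.37 in siNEG and 0.29 in siGPR17 OPCs.

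A gene entered the test if its probe passed the background limit on 2 or more arrays, and the brightest probe stood for the gene. This left 36 of the 52 Wnt genes, 31 of them well above background on all 4 arrays. The 16 others were Wnt10a, which was well above background on 1 array, and 15 genes that were so on none: the ligands Wnt2b, Wnt5a, Wnt8a, Wnt8b, Wnt9b, Wnt10b and Wnt11, the receptors Fzd5 and Fzd6, the co-receptor Ror1, the secreted inhibitors Dkk1, Dkk2 and Dkk4, and the feedback genes Notum and Rnf43. For these 15 genes the arrays do not show whether the transcript was absent. Wnt9a lay just inside the limit, with 2 arrays well above background and signals of 14.9 and 31.0 in siNEG and 16.5 and 16.8 in siGPR17 OPCs. Wnt10a lay just outside it, with 13.2 and 12.6 in siNEG and 18.0 and 18.5 in siGPR17 OPCs, where 1 array was well above background.

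At the thresholds of the study, 1.5-fold with an adjusted p below 0.07, limma called 0 of the 36 Wnt genes, where the share called among all 11652 tested genes was 0%. The methods' t-test on the same values also called 0, with 8 at an unadjusted p under 0.05, and limma with a trended and robust spread called 1, Fzd4, where 1.58% of all tested genes were called. An unadjusted p under 0.05 was reached in limma by 9 Wnt genes, or 25.0%, against 16.2% of all tested genes. Of these, 5 were higher in siGPR17 OPCs, against 7.43% of all tested genes, and 4 were lower, against 8.74%. This count rested on single arrays: it was 14 without the first siNEG array and 4 without either siGPR17 array. A fold change of 1.5 or more was shown by 4 Wnt genes, 2 higher and 2 lower. This was 11.1%, against 5.08% of all tested genes (2.43% higher and 2.65% lower). Under normexp background correction this count was 0, and with scaling on the spike-in controls it was 2. The count was 8 without the first siNEG array and 2 without the first siGPR17 array.

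The groups did not overlap for 22 of the 36 genes, 10 higher and 12 lower, or 61.1% against 53.4% of all tested genes (28.1% higher and 25.3% lower). The median log2 fold change was 0.02 over the Wnt genes and 0.01 over all tested genes. The median size of the change, regardless of sign, was 0.22 over the Wnt genes and 0.14 over all tested genes. With 2 arrays against 2 there are 3 ways to split the samples, and an exact two-sided permutation test of a single gene cannot give a p below 0.333.

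**Figure D1:**
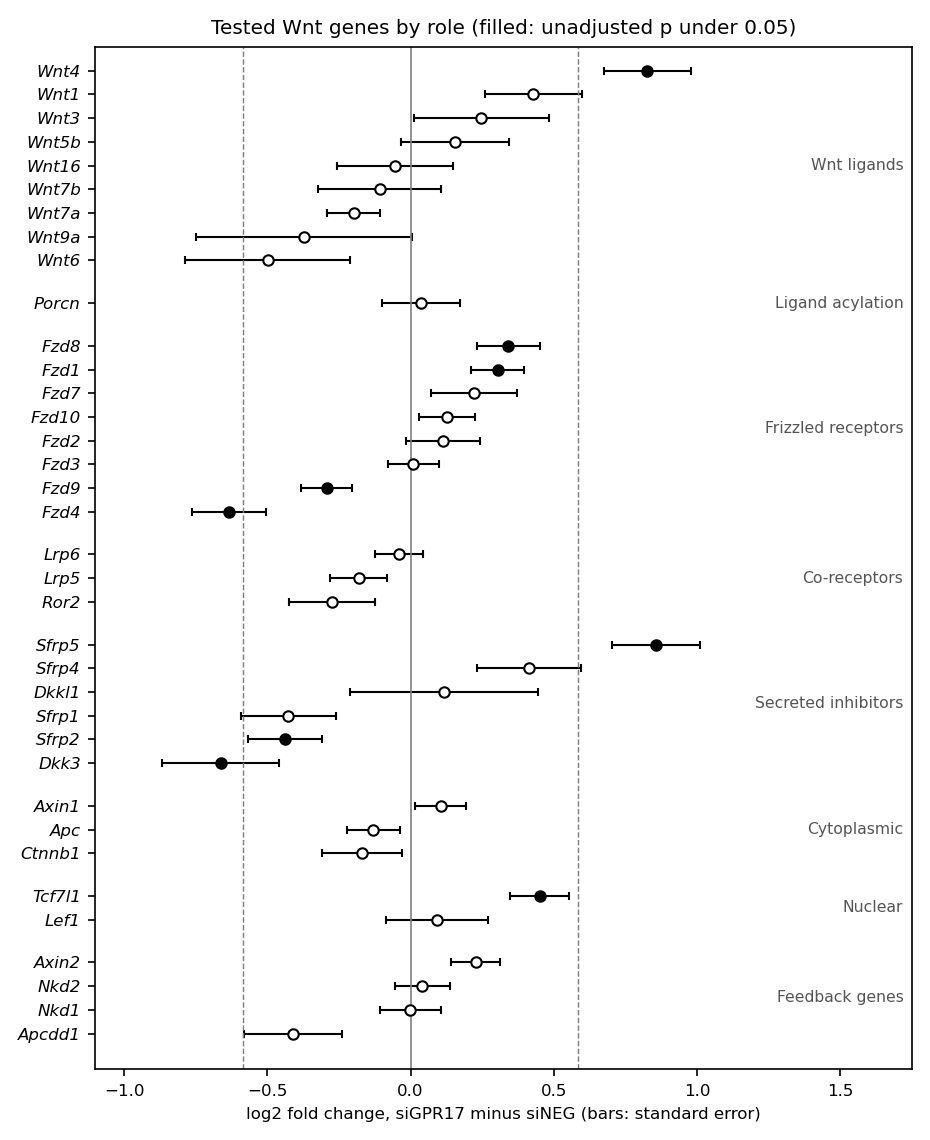
Log2 fold change (siGPR17 minus siNEG, n = 2 arrays per group) of the 36 tested Wnt genes, grouped by role, with the standard error as bars. Filled points have an unadjusted p under 0.05 and dashed lines mark a fold change of 1.5; Wnt4 and Sfrp5 lie beyond the line on the higher side, and Fzd4 and Dkk3 on the lower side.

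Among the 17 ligands with a probe, 9 were tested and 1 reached an unadjusted p under 0.05, against 16.2% of all tested genes. This was Wnt4, a ligand known for its part in kidney and reproductive tract development. Wnt4 gave signals of 49.6 and 38.8 in siNEG and of 75.6 and 79.9 in siGPR17 OPCs. Both siGPR17 arrays were above both siNEG arrays, and the gap between the groups was wider than that between replicates. The log2 fold change of Wnt4 was 0.83 (SE 0.152, unadjusted p = 0.005, adjusted p = 0.210 in limma), and 0.47 under normexp background correction.

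Wnt1, the founding member of the family, gave 75.3 and 56.4 in siNEG and 86.7 and 88.8 in siGPR17 OPCs, without overlap, with a log2 fold change of 0.43 (SE 0.168, unadjusted p = 0.061 in limma), which was 0.22 without the second siNEG array. Wnt7a and Wnt7b are ligands by which neural cells act on brain vessels through Adgra2 and Reck, and OPCs themselves are a known source of them. Wnt7a gave 636 and 672 in siNEG and 554 and 585 in siGPR17 OPCs, with a log2 fold change of -0.20 (SE 0.092, unadjusted p = 0.096 in limma), and the dimmer probe of Wnt7a also gave -0.20, while spike-in scaling gave -0.073. Wnt7b overlapped between the groups, with 61.6 and 83.0 in siNEG and 75.6 and 58.3 in siGPR17 OPCs and a log2 fold change of -0.11 (SE 0.215).

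Wnt6 was set apart by its first siNEG array, at 138 against 79.9 on the second and 76.6 and 71.8 in siGPR17 OPCs. Its log2 fold change of -0.50 had a SE of 0.287, and it was -0.11 without the first and -0.89 without the second siNEG array. The remaining tested ligands, Wnt3, Wnt5b, Wnt9a and Wnt16, had log2 fold changes from -0.37 to 0.25, each with overlapping groups. Porcn, the enzyme that attaches the lipid without which Wnt proteins are not secreted, gave 9968 and 12366 in siNEG and 11399 and 11364 in siGPR17 OPCs. Its siGPR17 values lay between those of siNEG, with a log2 fold change of 0.04 (SE 0.137).

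The Frizzled receptors differed in direction. Of 10 with a probe, 8 were tested, and 4 reached an unadjusted p under 0.05: Fzd8 and Fzd1 were higher, and Fzd4 and Fzd9 were lower, in siGPR17 OPCs. Among all tested genes the share was 16.2% (7.43% higher and 8.74% lower). Fzd4, a receptor for Wnts and for norrin in retinal and brain vessels, gave 186 and 216 in siNEG and 121 and 138 in siGPR17 OPCs. Both silenced samples were well below both controls, 1.55-fold on average. The log2 fold change was -0.63 (SE 0.129, unadjusted p = 0.007, adjusted p = 0.211 in limma), and the adjusted p was 0.065 with the trended and robust spread. A second Fzd4 probe stayed below the background limit throughout.

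Fzd9 gave 152 and 148 in siNEG and 125 and 120 in siGPR17 OPCs, where replicates lay closer together than the groups. Its log2 fold change was -0.29 (SE 0.088, unadjusted p = 0.028, adjusted p = 0.261 in limma), and it was -0.17 with scaling on the spike-in controls and -0.13 under normexp. Fzd8 gave 347 and 399 in siNEG and 463 and 480 in siGPR17 OPCs. Both siGPR17 arrays were higher, with a log2 fold change of 0.34 (SE 0.111, unadjusted p = 0.035, adjusted p = 0.274 in limma). The 2 dimmer probes of Fzd8 gave 0.31 and 0.42, in the same direction.

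Fzd1 gave 254 and 235 in siNEG and 302 and 301 in siGPR17 OPCs, again without overlap. Fzd1 had a log2 fold change of 0.30 (SE 0.092, unadjusted p = 0.029, adjusted p = 0.261 in limma). Fzd10 (log2 fold change 0.13), Fzd7 (0.22), Fzd2 (0.11) and Fzd3 (0.01) did not reach an unadjusted p of 0.05. Leaving out single arrays moved Fzd7 between 0.061 and 0.38. Fzd10 was at 0.065 without the second siGPR17 array, 0.25 with spike-in scaling and 0.22 with probes averaged. The averaged value includes a dimmer Fzd10 probe that was well above background on the siGPR17 arrays alone and entered the test through them. Among these 4 receptors, only Fzd10 had groups that did not overlap. Fzd3, which is known for axon guidance, gave 635 and 645 in siNEG and 625 and 665 in siGPR17 OPCs, so that its silenced samples enclosed the controls.

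Of the co-receptors, 0 of the 3 tested reached an unadjusted p under 0.05, against 16.2% of all tested genes. Lrp6, which with Frizzled passes on the canonical signal, gave 584 and 581 in siNEG and 564 and 569 in siGPR17 OPCs. The replicates were close, and the log2 fold change was -0.04 (SE 0.084) for this probe and -0.08 for a second one. Lrp5, the other canonical co-receptor, gave 385 and 350 against 332 and 315, and its log2 fold change was -0.18 (SE 0.0997), or -0.055 with spike-in scaling. Ror2, a receptor tyrosine kinase of the branch that does not use beta-catenin, gave 433 and 548 against 421 and 387, with a log2 fold change of -0.27 (SE 0.151), which ranged from -0.44 to -0.10 when single arrays were left out. By the brightest probe both siGPR17 arrays were the lower ones for each of the 3 genes, as for 25.3% of all tested genes, while the second Lrp6 probe overlapped and spike-in scaling brought Lrp6 to 0.085.

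The secreted inhibitors differed in both directions. Of 9 with a probe, 6 were tested and 3 reached an unadjusted p under 0.05, 1 higher and 2 lower, against 16.2% of all tested genes. Sfrp5, a secreted Frizzled-related protein that binds Wnts outside the cell, was dim: 20.0 and 16.5 in siNEG and 35.9 and 30.3 in siGPR17 OPCs, well above background on 1 of 2 siNEG arrays and on both siGPR17 arrays. Both silenced samples were higher, 1.81-fold on average. The log2 fold change was 0.86 (SE 0.154, unadjusted p = 0.005, adjusted p = 0.209 in limma), and 0.35 under normexp.

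Sfrp2, of the same family, differed the other way, with 240 and 291 in siNEG and 198 and 192 in siGPR17 OPCs. The silenced samples were close to each other and below both controls. For Sfrp2 the log2 fold change was -0.44 (SE 0.130, unadjusted p = 0.026, adjusted p = 0.257 in limma). Sfrp1 gave 450 and 600 in siNEG and 383 and 390.4 in siGPR17 OPCs, with a log2 change of -0.43 (SE 0.167, unadjusted p = 0.061 in limma), and -0.28 for its second probe. Without the second siNEG array this change of Sfrp1 was -0.22. Sfrp4, at 0.41 (SE 0.181, 0.64 without the first and 0.18 without the second siNEG array), did not reach an unadjusted p of 0.05, and it was well above background on 3 arrays.

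Dkk3, a divergent member of the Dickkopf family, gave 67.0 and 59.4 in siNEG and 33.5 and 47.6 in siGPR17 OPCs. The silenced samples were lower and also far apart. The log2 fold change of this brightest probe was -0.66 (SE 0.204, unadjusted p = 0.030, adjusted p = 0.264 in limma). The 2 other tested probes of Dkk3 gave 0.04 and 0.09, the mean over all 3 was -0.18, and the result was -0.18 under normexp and -0.41 without the first siGPR17 array, and the difference was thus seen in 1 of the 3 tested probes. Dkkl1, a distant relative of the Dickkopf proteins, overlapped, with a log2 fold change of 0.12 (SE 0.329).

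**Figure D2:**
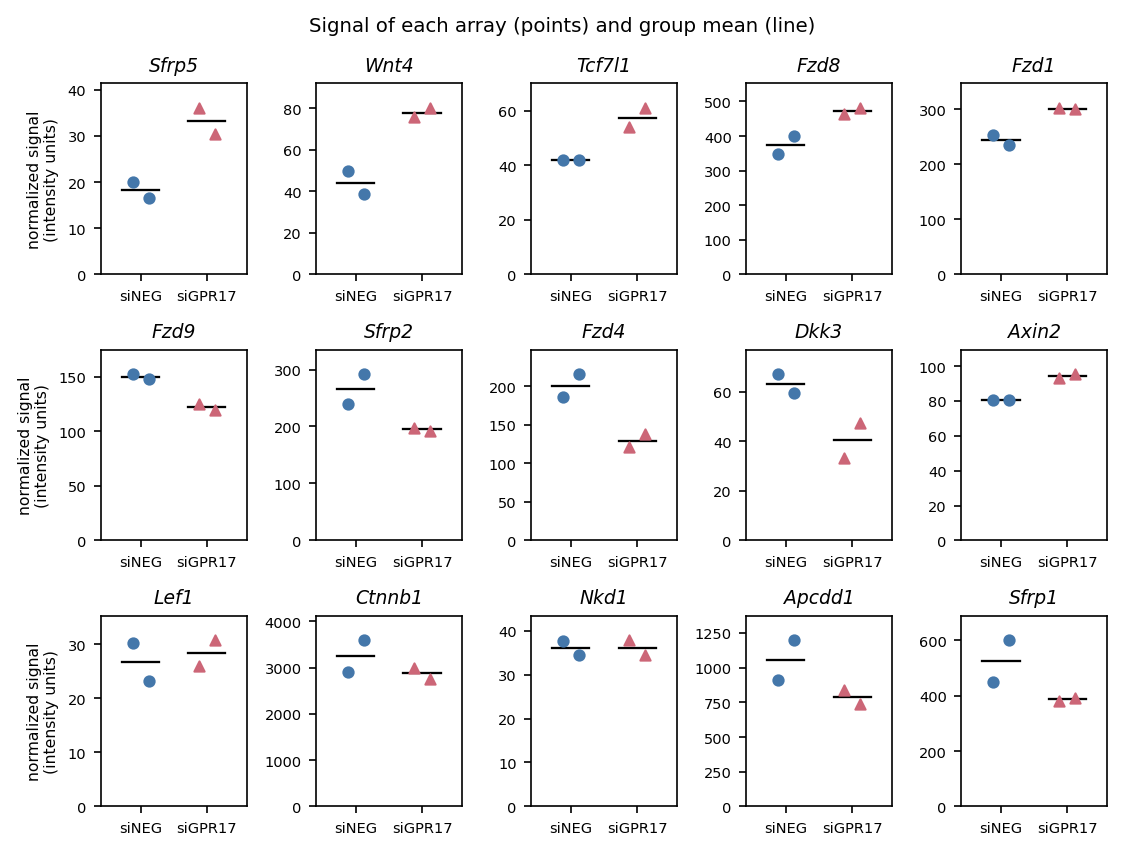
Normalized signal in intensity units (vertical axes, each from 0) on the 2 siNEG arrays (circles) and the 2 siGPR17 arrays (triangles) for 15 Wnt genes, with the group mean as a line. The top row and the first 4 panels of the middle row hold the 9 genes with an unadjusted p under 0.05, where the groups are apart, while Lef1, Ctnnb1 and Nkd1 overlap.

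In the cytoplasm, 0 of the 3 tested genes reached an unadjusted p under 0.05, against 16.2% of all tested genes. Ctnnb1, which encodes beta-catenin, gave 2906 and 3587 in siNEG and 2988 and 2760 in siGPR17 OPCs. The first siNEG array lay between the silenced samples, and the log2 fold change was -0.17 (SE 0.140), or -0.017 without the second and -0.32 without the first siNEG array. Axin1, the scaffold of the degradation complex, had a log2 fold change of 0.10 (SE 0.088), or 0.23 with spike-in scaling, and Apc, its partner, one of -0.13 (SE 0.092), which was -0.075 without the first siGPR17 array, -0.028 under normexp and -0.0043 with spike-in scaling. The pathway is regulated at this step by protein stability, which transcript arrays do not measure.

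In the nucleus, Tcf7l1, a Tcf factor that mostly acts as a repressor, gave 41.9 and 41.8 in siNEG and 53.8 and 60.8 in siGPR17 OPCs. The controls were almost equal and both silenced samples were higher. Its log2 fold change was 0.45 (SE 0.104, unadjusted p = 0.011, adjusted p = 0.218 in limma), and 0.22 under normexp. Lef1, which activates targets with beta-catenin, gave 30.3 and 23.2 in siNEG and 26.01 and 30.7 in siGPR17 OPCs, with a log2 fold change of 0.09 (SE 0.178). Its groups overlapped, and its direction turned when the second array of either group was left out.

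The feedback genes, whose transcripts follow canonical signaling in many tissues, did not share a direction. By the brightest probe, 0 of the 4 tested reached an unadjusted p under 0.05, against 16.2% of all tested genes. Axin2, which carried both motifs in its window, gave 80.3 and 80.5 in siNEG and 93.0 and 95.2 in siGPR17 OPCs. The replicates were nearly equal and the silenced samples higher. The log2 fold change was 0.23 (SE 0.085, unadjusted p = 0.053, adjusted p = 0.305 in limma), and it was 0.35 with scaling on the spike-in controls and 0.15 under normexp.

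Apcdd1, a membrane inhibitor that binds Wnts and Lrp5, gave 913 and 1196 in siNEG and 837 and 738 in siGPR17 OPCs. Here the silenced samples were lower, with a log2 fold change of -0.41 (SE 0.171, unadjusted p = 0.072 in limma), which was -0.22 without the second siNEG array. Nkd1, which with Nkd2 binds Dishevelled and dampens the signal, gave 37.7 and 34.5 in siNEG and 37.8 and 34.4 in siGPR17 OPCs. The 2 conditions could not be distinguished by this probe, whose log2 fold change was -0.00 (SE 0.106).

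Both Naked genes had a second tested probe. The dimmer Nkd1 probe gave 9.59 and 16.5 in siNEG and 22.4 and 23.7 in siGPR17 OPCs, and it was well above background on the siGPR17 arrays alone, through which it entered the test, so that its difference is not set against that of the brighter probe. The brighter Nkd2 probe gave 396 and 375 in siNEG and 383 and 410 in siGPR17 OPCs, overlapping, with a log2 fold change of 0.04 (SE 0.095). The dimmer Nkd2 probe gave 195 and 198 in siNEG and 259 and 296 in siGPR17 OPCs. Both silenced samples were higher by this probe, unlike by the brighter one, with a log2 fold change of 0.50 (SE 0.107, unadjusted p = 0.009, adjusted p = 0.215 in limma). Which Nkd2 probe follows the transcript was not tested.

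**Figure D3:**
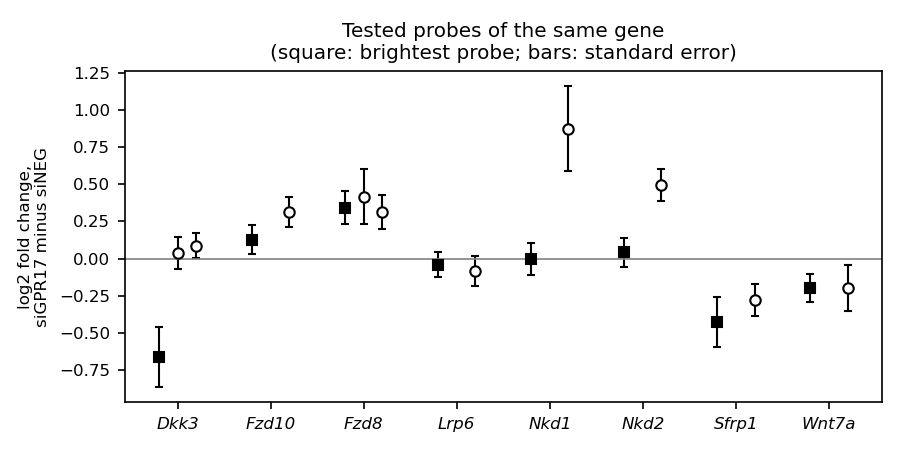
Log2 fold change (siGPR17 minus siNEG, bars for the standard error, n = 2 arrays per group) for each tested probe of the 8 Wnt genes with more than 1 tested probe. The square is the brightest probe; the probes of Fzd8, Sfrp1 and Wnt7a lie on one side of 0, while those of Dkk3 differ in sign. The dimmer probes of Nkd1 and Fzd10 were not well above background on any siNEG array, so their points have no measured level on that side.

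Other genes of the pathway, from a list of 87, were set beside these. A probe was found for 76 and 63 were tested, and limma and the methods' t-test both called 0 of the 63 at the thresholds of the study. With the trended and robust spread 4 were called, Celsr1, Frzb, Lgr4 and Tle2, where 1.58% of all tested genes were called, and with normexp 1, Frzb, where 0.961% were. An unadjusted p under 0.05 was reached by 15, or 23.8% against 16.2% of all tested genes, 6 higher (7.43% of all tested genes) and 9 lower (8.74%). Without either siGPR17 array this count was 7. The median log2 fold change of the 63 genes was -0.04, and 7 of them, or 11.1%, showed a fold change of 1.5 or more, against 5.08%. One of these, Rspo2, was well above background in siNEG alone.

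Frzb, a secreted Frizzled-related protein also called Sfrp3, gave 388 and 480 in siNEG and 254 and 233 in siGPR17 OPCs. Both silenced samples were clearly below the controls. Its log2 fold change was -0.83 (SE 0.142, unadjusted p = 0.004, adjusted p = 0.209 in limma). Gpc4, a glypican that holds Wnts at the cell surface, gave 54.1 and 60.6 in siNEG and 42.1 and 34.2 in siGPR17 OPCs, with a log2 fold change of -0.59 (SE 0.146), and -0.21 under normexp.

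Lgr4, a receptor for R-spondins that spares Frizzled from degradation, gave 757 and 662 in siNEG and 1068 and 1119 in siGPR17 OPCs. It was higher in both silenced samples, with a log2 fold change of 0.63 (SE 0.110, unadjusted p = 0.004, adjusted p = 0.209 in limma). Rspo2, one of the R-spondins, gave 16.8 and 19.6 in siNEG and 13.9 and 4.13 in siGPR17 OPCs. It was not well above background on either siGPR17 array, and it entered the test through siNEG alone. The level of Rspo2 in siGPR17 OPCs was therefore not measured, and its fitted log2 fold change of -1.26 is not an exact value. The fitted value was -0.38 without the second siGPR17 array, -2.14 without the first one and -0.14 under normexp. Sost, an Lrp5 and Lrp6 antagonist best known from bone, was dim. It gave 23.9 and 21.2 in siNEG and 42.5 and 27.8 in siGPR17 OPCs (log2 fold change 0.61, unadjusted p = 0.059 in limma). The log2 fold change of Sost was 0.30 without the first and 0.92 without the second siGPR17 array, and 0.22 under normexp.

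In the branch of planar cell polarity, which orients cells without beta-catenin, 4 of 9 tested genes reached an unadjusted p under 0.05, 2 higher and 2 lower, against 16.2% of all tested genes. Celsr1, an atypical cadherin, gave 113 and 146 in siNEG and 213 and 223 in siGPR17 OPCs. The silenced samples were higher, with a log2 fold change of 0.76 (SE 0.155, unadjusted p = 0.007, adjusted p = 0.211 in limma), and 0.51 under normexp. Its relative Celsr3 had a log2 fold change of -0.31, but a dimmer tested probe of Celsr3 gave -0.02 and the mean over both was -0.17. The adaptor Prickle1 had one of 0.46 and Prickle2 one of -0.42, the latter -0.28 without the second siNEG array.

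Among 18 tested genes of signal transduction, the log2 fold changes with an unadjusted p under 0.05 were -0.53 for Dact1 and -0.45 for Cxxc4, both known to bind Dishevelled, and -0.28 for Csnk1e and 0.26 for Csnk1g1, which encode casein kinases. Under normexp Dact1 was at -0.16, and with all probes averaged Csnk1g1 was at 0.16. The other tested probes of Csnk1g1 gave 0.02 and 0.18, both with overlapping groups. Spike-in scaling brought Csnk1e to -0.15, Tle3 to -0.15 and Cd44 to -0.20. Among 13 tested nuclear cofactors they were 0.61 for Tle2, 0.26 for Tle1 and -0.28 for Tle3, which belong to the Groucho family of corepressors. Of 8 tested target genes, 1 reached that level, Cd44, an adhesion receptor, at -0.33. These were 4, 3 and 1 genes, or 22.2%, 23.1% and 12.5% of the 3 classes, against 16.2% of all tested genes. The cell cycle genes among the targets, Ccnd1 and Myc, had log2 fold changes of 0.12 (SE 0.090) and -0.22 (SE 0.103). Tcf7l2 had no matched probe and was not analysed here.

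**Figure D4:**
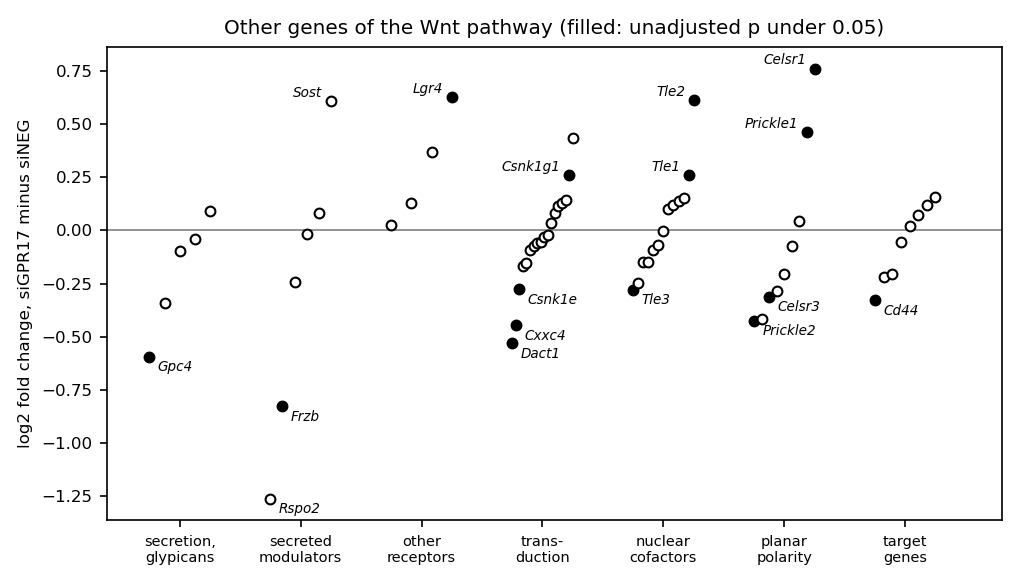
Log2 fold change (siGPR17 minus siNEG) of the 63 tested genes from the list of other Wnt pathway genes, each point a gene, in 7 classes along the horizontal axis. Filled points have an unadjusted p under 0.05; Celsr1, Lgr4 and Tle2 are the highest of them and Frzb the lowest.

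Markers of the cell types that such a culture could hold were read on the same arrays. The OPC markers were all 8 tested, with a summed signal of 214861 and 255691 in siNEG and 208103 and 210284 in siGPR17 OPCs, and Olig2 was their brightest. The 9 oligodendrocyte markers reported, all tested and led by Mbp, summed to 384609 and 440953 in siNEG and to 448888 and 464770 in siGPR17 OPCs. All of these markers of the labelled lineage were well above background on every array. At an unadjusted p under 0.05, 7.43% of all tested genes were higher and 8.74% lower. Of the OPC markers 3 were lower at that level (Cspg4, C1ql1 and Neu4), and of the oligodendrocyte markers 1 was higher (Mbp) and 1 was lower (Mog).

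Several Wnt genes named here, among them Fzd4 and Lgr4, are also expressed outside the oligodendrocyte lineage, and some markers of other cell types differed between the groups. Of 8 endothelial markers 4 were tested and 3 were higher at an unadjusted p under 0.05 (Kdr, Tek and Vwf), against 7.43% of all tested genes, with a sum of 1210 and 1096 in siNEG and 1677 and 1582 in siGPR17 OPCs, led by Vwf. Cdh5, the endothelial cadherin, was well above background on all 4 arrays and gave 69.2 and 62.9 in siNEG and 74.1 and 92.1 in siGPR17 OPCs (log2 fold change 0.33, SE 0.145). Flt1 was well above background on 1 array, and Pecam1, Cldn5 and Tie1 stayed below the background limit on all 4 arrays. Of 8 astrocyte markers, all tested, 3 were lower (Aqp4 with a log2 fold change of -1.35, Gfap and Slc1a3). The others lay on both sides of 0. Gja1 was at 0.33, Aldh1l1 at 0.27 and Fgfr3 at 0.23, while Slc1a2 was at -0.22 and Aldoc at -0.03. The sum of all 8 was 116310 and 131062 in siNEG and 118842 and 120066 in siGPR17 OPCs. Most of it was Aldoc, which alone gave 107483 and 121582 in siNEG and 111314 and 112583 in siGPR17 OPCs.

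Of 10 microglial markers 8 were tested and 2 were lower (Aif1 and P2ry12), with a sum of 3428 and 1871 in siNEG and 2000 and 2490.3 in siGPR17 OPCs, led by Cx3cr1, while Csf1r and Ptprc stayed below the background limit. Of 9 fibroblast and mural markers 4 were tested and 1 was lower (Tagln, log2 fold change -0.93). The other tested ones had positive log2 fold changes, Col1a1 of 0.43, Acta2 of 0.27 and Col1a2 of 0.21. The sum was 548 and 435 in siNEG against 542 and 530 in siGPR17 OPCs, led by Col1a2. Dcn, Lum, Pdgfrb and Rgs5 were not well above background. Of 8 neuronal markers 7 were tested and 4 were lower (Gad1, Gad2, Snap25 and Stmn2, of which Gad2 was well above background in siNEG alone and entered the test through it), with a sum of 3100 and 3534 against 2909 and 2771, led by Tubb3, and Slc17a7 was not well above background. The part of any of these cell types in the values of the Wnt genes was not tested.

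**Figure D5:**
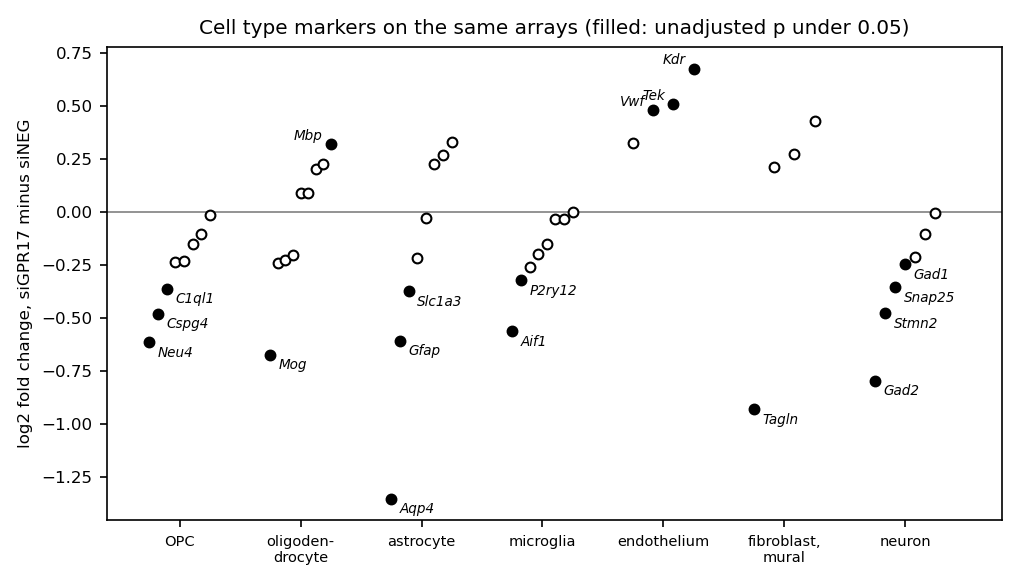
Log2 fold change (siGPR17 minus siNEG) of the tested markers of 7 cell types (horizontal axis), each point a gene. Filled points have an unadjusted p under 0.05; the filled endothelial markers Kdr, Tek and Vwf lie above 0, and those of OPCs, astrocytes, microglia and neurons lie below 0.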

How the data were processed

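Groups and replicate numbers came from the labels. The authors deposited spot intensities per array from Agilent Feature Extraction 10.7.3.1 (submitters' processing notes), corrected for background and not normalized between arrays. Here, control and outlier spots were left out, spots of one probe averaged, and log2 intensities taken relative to each array's 75th percentile. Probes well above background on at least 2 arrays (28016 of 45565) were fitted with limma 3.58.1 (lmFit, eBayes; R 4.3.3) without block, with Benjamini-Hochberg adjustment over all of them. Probes were named by transcript accession through a RefSeq table of GRCr8, which matched 21086 probes, and promoter windows come from the same source. The brightest probe stood for a gene.

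Values per array are given for Wnt genes with an unadjusted p under 0.05, a fold of 1.5 or a group below background, and for Axin2, Lef1, Nkd1 and Ctnnb1. Others were added after their values were seen. Other pathway genes are named at the same limits, besides Ccnd1, Myc and unmatched genes. The members and lists were chosen with earlier results of these data known. The result of 1 oligodendrocyte marker is not reported here. The code was tested on simulated data. Alternatives were normexp (offset 50, on the spot median, since the spot mean was not used here), quantile normalization, scaling on shared or spike-in probes, 3 treatments of dim probes, a trended and robust spread, the t-test named in the methods' statistics section (the methods' t-test), a replicate block, leaving out each array, and averaging probes.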

Additional observations from a re-analysis of the deposited data

How the results depend on the processing

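With 2 arrays per group, the precision of each value was limited by the number of arrays, and dim genes by signal over background. All calls named at an unadjusted p under 0.05 had an adjusted p above 0.2 in the limma fit reported. Scaling on 9 spike-in controls moved the median of all probes by 0.13 on the log2 scale, and the other scalings moved it by at most 0.02. Of the 53 named genes followed, 40 kept their direction in every alternative run. Genes removed by the filter on all 4 arrays had no value there. The cause of each change below was not tested.

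At the thresholds of the study, the count of Wnt genes was 0 under 14 alternatives and 1 with the trended and robust spread (Fzd4), and that of other pathway genes was 1 under normexp, 4 with the trended and robust spread and 0 otherwise. Over all genes it was 112 under normexp, 184 with the trended and robust spread and 0 otherwise. Gpr17 was past the adjusted p threshold under normexp (log2 fold change -0.66) and with the trended and robust spread (-0.78). The count of Wnt genes at an unadjusted p under 0.05, 9 as reported, ranged from 4 to 14 when single arrays were left out. Those higher (5) numbered 8 under quantile normalization and 8 with probes averaged. The latter 8 include Nkd1, by way of its dimmer probe. That probe was well above background on the siGPR17 arrays alone and entered the test through them. Those lower (4) numbered 2 with spike-in scaling, and 1 to 6 when single arrays were left out. Wnt genes with a fold change of 1.5 or more (4) numbered 0 under normexp, 2 with spike-in scaling and 6 with no filter. With no filter all 52 genes entered, and the 6 include Dkk4 and Ror1, which were not well above background on any array. For other pathway genes, the count at an unadjusted p under 0.05 (15) was 10 with no filter, and 7 to 21 when single arrays were left out. The median log2 fold change of the Wnt genes was 0.15 with spike-in scaling, -0.0013 with no filter and -0.0015 with the filter on all 4 arrays, and it ranged from -0.012 to 0.044 when single arrays were left out.

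The labels do not say whether equal replicate numbers pair the samples. Same-numbered arrays shared a row of the slide, and their deviations from the group means correlated with r = -0.07 over probes. With so few arrays this correlation cannot show whether the samples were paired. With the replicate number as a block, limma called 0 Wnt genes and 0 other pathway genes at the thresholds, 6 Wnt genes reached an unadjusted p under 0.05 (3 higher and 3 lower), 4 had a fold change of 1.5 or more, and 9 other pathway genes reached an unadjusted p under 0.05. The median of the Wnt genes remained 0.02, and Gpr17 was at -0.78 with an adjusted p of 0.39.

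Some genes turned direction, none of them at an unadjusted p under 0.05 in the fit reported. Nkd1 was at 0.050 under normexp, 0.0041 under quantile normalization, 0.0011 with scaling on shared probes, 0.12 with spike-in scaling, 0.44 with probes averaged (the second probe was dim on both siNEG arrays), and between -0.069 and 0.066 when single arrays were left out. With spike-in scaling Lrp6 was at 0.085, Wnt7b at 0.018 and Wnt16 at 0.070, and Wnt16 was at 0.046 under normexp. When single arrays were left out, the log2 fold change ranged from -0.33 to 0.56 for Dkkl1, -0.015 to 0.24 for Fzd2, -0.034 to 0.054 for Fzd3, -0.10 to 0.28 for Lef1, -0.0092 to 0.092 for Nkd2, -0.12 to 0.19 for Porcn, -0.31 to 0.20 for Wnt16, -0.036 to 0.53 for Wnt3, -0.086 to 0.40 for Wnt5b, -0.32 to 0.11 for Wnt7b and -0.90 to 0.16 for Wnt9a.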
